A study of Bos taurus with 23 samples.

Results

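Protein kinases of the MAP kinase, protein kinase A and protein kinase C families were followed through bovine preimplantation development, from the oocyte to the blastocyst. Members were taken as all genes whose single platform symbol begins with MAPK, MAP2K, MAP3K, MAP4K, PRKA, PRKC, PRKD, PRKG or RPS6K, and each gene was read on its probe set with the highest mean over all arrays. This gave 57 of 9155 named genes, carried by 83 probe sets, with several probe sets for 17 genes. The prefixes also bring in 4 genes for subunits of AMP-activated protein kinase (AMPK) and genes of other kinases, such as PRKG1, PRKD3 and the RPS6K genes. Regulatory subunits of protein kinase A and AMPK count as members. A further 8 products belong to none of these kinases. They are the JNK scaffolds MAPK8IP1, MAPK8IP2 and MAPK8IP3, the mTOR complex subunit MAPKAP1, the glucosidase subunit PRKCSH and the DNA repair kinase PRKDC. The others, MAPK1IP1L and MAP3K7CL, are named after a MAP kinase.

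MAP kinases are the last step of tiered cascades, in which a MAP3K phosphorylates a MAP2K and the MAP2K phosphorylates a MAP kinase (ERK, JNK or p38), which acts in turn on kinases such as RSK and on transcription factors. In oocytes the MAP3K is MOS, and the cascade MOS, MEK and ERK holds the mature egg in metaphase until fertilisation. Protein kinase A is kept inactive by regulatory subunits that release the catalytic subunits when cyclic AMP binds, and high cyclic AMP keeps the oocyte in meiotic arrest. Protein kinases C respond to diacylglycerol, calcium or both, except the atypical members, which need neither and work with the PAR proteins in cell polarity during compaction and formation of the trophectoderm.

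Poly(A)+ RNA was hybridised to bovine GeneChip arrays, 23 in all. The in vivo oocytes (3 arrays) came from preovulatory follicles of 9 animals on day 0, and the in vitro oocytes (3 arrays, called cultured oocytes below) were cultured under conditions that the labels do not give. Animals were inseminated with frozen and thawed semen of one Holstein-Friesian bull, and zygotes (3 arrays), 2-cell (2 arrays), 4-cell (2 arrays) and 8-cell embryos (4 arrays, embryos of 8 to 16 cells) were recovered on days 1 to 4 by flushing the oviducts of 24 cows. Morulae (3 arrays) and blastocysts (3 arrays) were flushed from the uterus of 7 animals on day 7 or 8. Pools held 10 embryos, or 5 blastocysts, and the pool size of oocytes is not given. Arrays of 1 group are biological replicates by their labels, which do not say whether pools share animals, so p-values measure only the spread between these arrays. Donor set, collection site and day change along with the stage from oocyte to zygote and from the 8-cell stage to the morula, and cannot be told apart from it.

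All values are log2 GCRMA expression values, and signal under 4 was treated as background. Arrays of one group correlated at 0.899 to 0.990 over the 14571 probe sets above 4 on at least 2 arrays. Correlations were lowest among the 8-cell arrays and then among in vivo oocytes (from 0.914). The array of in vivo oocytes replicate 2 stands apart: 11 of 18 cumulus and granulosa markers exceeded 4 on it, against 4 and 5 on the other in vivo arrays and 5 to 7 on the cultured ones, and HSD17B1, an oestrogen-making enzyme of granulosa cells, read 11.03 there and 1.70 and 1.71 on the others. On 4-cell replicate 1, 11 of 14 blood and leukocyte markers exceeded 4, against 3 on replicate 2. LTF, from the list of oviduct and uterus markers, read 13.86 on 2-cell replicate 1, 13.18 on blastocyst replicate 1 and 10.94 on 8-cell replicate 3. On all other arrays it read at most 3.14. Of these, 8-cell replicate 3 stayed in where 4 arrays with markers of other cells were left out below. Oocyte markers were above 4 on all 8 probe sets up to the 8-cell stage, and 6 of 6 trophectoderm markers were above 4 in blastocysts. In pooled embryos, fewer cells of a type and less RNA per cell cannot be told apart.

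Of the 57 members, 45 exceeded 4 on at least 2 arrays and were tested, and 21 exceeded 4 on all 23 arrays. The 12 others include 9 that reached 4 on no array: MAP3K11, MAP3K20, MAP4K1, MAP4K3, MAPK8IP3, the PKA regulatory subunits PRKAR1B and PRKAR2B, and the calcium-dependent PKC genes PRKCA and PRKCB. MAPK12, RPS6KA4 and RPS6KL1 exceeded 4 on 1 array each. Over the 6 in vivo steps 42 of the 45 changed by the F test of limma, where the background was 90.6% of the 7070 genes tested. The members' median span between the highest and lowest stage mean was 3.47, beside 3.42 for all genes. MAPK14, RPS6KB1 and PRKD3 did not pass the F test, and these 3 and PRKDC passed in none of the 8 comparisons.

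**Figure D1:**
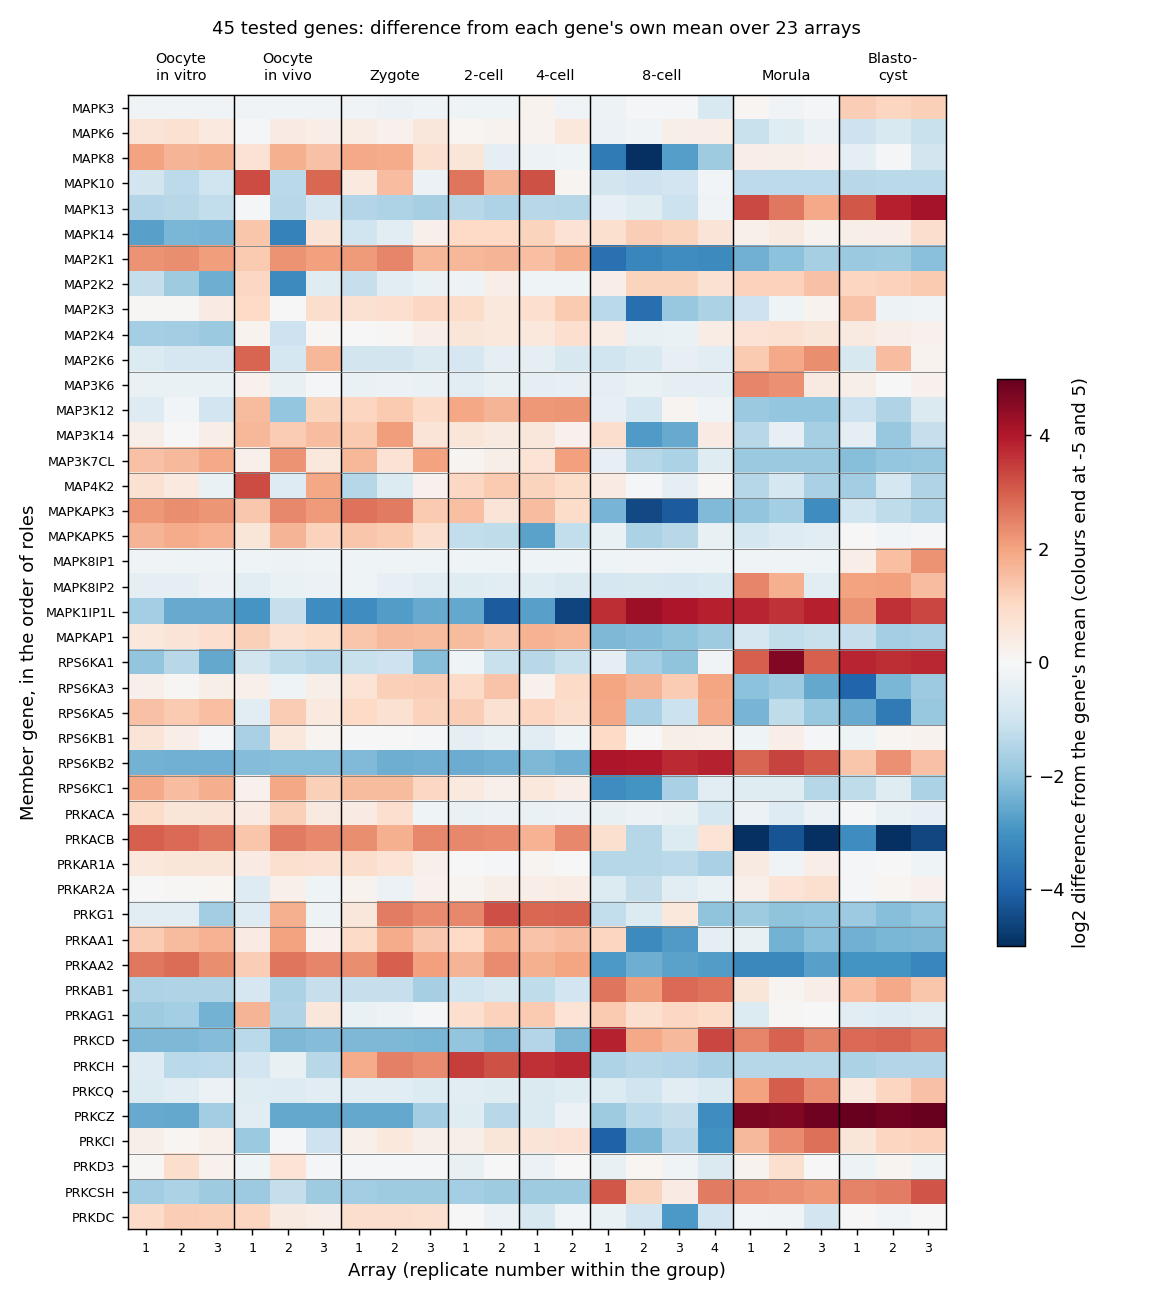
Values of the 45 tested genes on the 23 arrays, as the log2 difference from each gene's own mean over all arrays. Rows follow the genes' roles, with thin lines between roles, columns are arrays ordered by stage, and colours end at -5 and 5. Most rows change colour between the 4-cell, 8-cell and morula columns, and MAPK10, MAPK14, MAP2K2, MAP2K6, MAP4K2 and PRKAG1 change within the 3 in vivo oocyte columns.

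Few members passed before the 8-cell stage, and few of all genes did at the steps from in vivo oocyte to 4-cell embryo. Between cultured and in vivo oocytes 2 of 45 passed, both lower in cultured oocytes, beside 12.4% of all genes (0.721% higher and 11.7% lower). From in vivo oocyte to zygote 1 member passed, the rise of PRKCH, beside 3.17% of all genes (0.891% higher and 2.28% lower). From zygote to the 2-cell stage 1 passed, the fall of MAPKAPK5, beside 3.34% of all genes (1.41% higher and 1.92% lower). From the 2-cell to the 4-cell stage limma called 0 of 45 (background 0.0141%), and 0 had an unadjusted p under 0.05. Without in vivo oocyte replicate 2, 10 members passed between cultured and in vivo oocytes and 8 between in vivo oocyte and zygote. The shares of all genes were then 22.7% and 10%.

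The step from the 4-cell to the 8-cell stage moved 25 of 45 members, 7 higher and 18 lower, where 65.5% of all genes passed (31.2% higher and 34.3% lower). As shares, 15.6% of the members rose and 40% fell, and their median difference was -0.68, beside -0.03 over all genes. Between the 8-cell stage and the morula 23 passed, 15 higher and 8 lower, where the background was 58.4% (30% higher, 28.4% lower), and the median difference was 0.22 beside 0.03. From morula to blastocyst 6 passed, 3 in each direction, beside 9.5% of all genes (5.74% higher, 3.76% lower). With arrays centred on 18 spike-in probe sets 0 of 45 passed. The 6 differences kept about their size there, from -1.59 for MAP3K6 to 1.54 for MAPK8IP1, beside -1.57 and 1.56 without that centring. Their limma adjusted p rose to 0.0748 or more. Between in vivo oocytes and blastocysts 33 members passed, 14 higher and 19 lower (background 68.9%, with 36.2% higher and 32.7% lower), with a median difference of -0.64 beside 0.08. The largest single step lay at the 8-cell stage for 19 of the 42 members that changed (45.2%, beside 54.8% of all genes) and at the morula for 17 (40.5%, beside 33.4%).

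**Figure D2:**
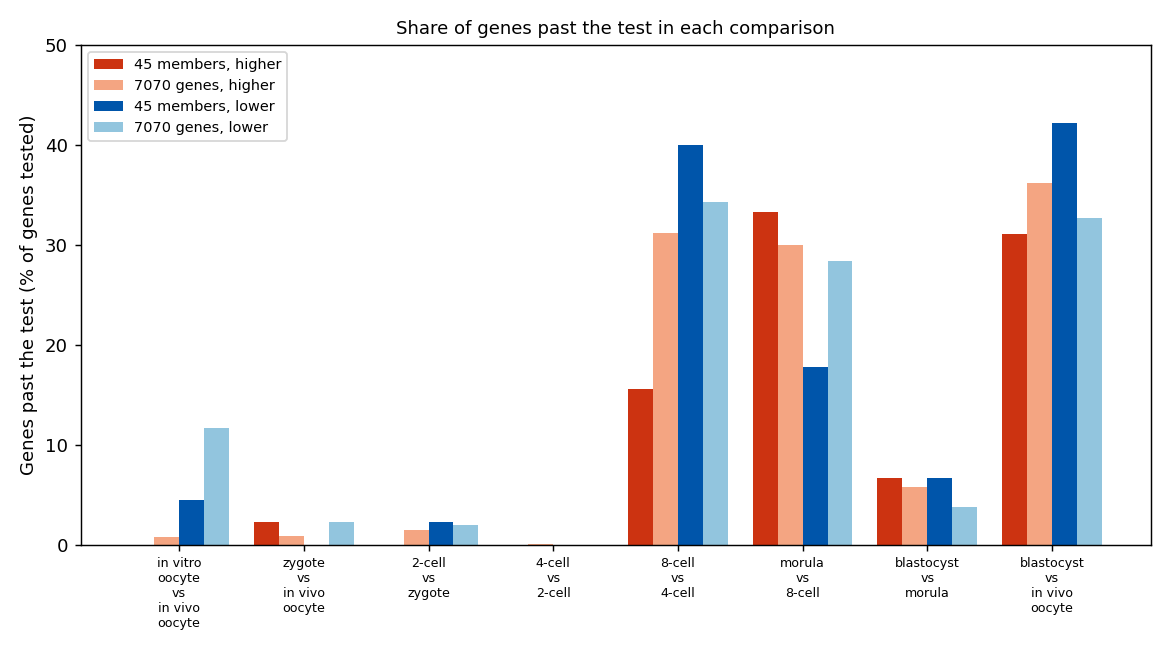
Share of the 45 tested members (dark bars) and of the 7070 tested genes (light bars) that passed the test at adjusted p under 0.05, higher (red) or lower (blue) in the first-named group, for each of 8 comparisons on the horizontal axis. At the 8-cell stage 15.6% of members rose and 40% fell, and at the morula 33.3% rose and 17.8% fell.

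In the ERK branch MOS and MAP2K1 fell at the 8-cell stage. MOS, the MAP3K of the oocyte, is no member by its symbol and is given beside MAP2K1. Its values were 13.75, 13.68 and 13.58 in cultured oocytes, 13.56, 13.49 and 13.39 in in vivo oocytes, 13.63, 13.43 and 13.49 in zygotes, 13.39 and 13.52 in 2-cell and 13.55 and 13.48 in 4-cell embryos. MOS then read 6.46, 10.65, 10.70 and 6.59 at the 8-cell stage, 1.62, 2.06 and 1.62 in morulae and 1.85, 1.61 and 1.61 in blastocysts. It was high and even up to the 4-cell stage, split at the 8-cell stage into a lower and a higher pair, and lay below 4 from the morula on. MOS fell by 4.91 (SE 0.85, limma adjusted p = 4.5e-05) at the 8-cell stage, and in morulae it was at least 24.3-fold lower than at the 8-cell stage (limma adjusted p = 2.21e-07). Where an array of the lower group lay under 4, as here in morulae, folds are taken against the higher of 4 and the array's own value and given as at least that size.

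MAP2K1 encodes MEK1, the kinase between MOS and ERK. MAP2K1 read 12.95, 13.02 and 12.77 in cultured oocytes, 11.99, 12.94 and 12.75 in in vivo oocytes, 12.83, 13.14 and 12.37 in zygotes, 12.37 and 12.41 in 2-cell and 12.20 and 12.47 in 4-cell embryos. It then read 6.98, 7.46, 7.60 and 7.50 at the 8-cell stage, 8.29, 8.64 and 9.05 in morulae and 8.85, 8.92 and 8.62 in blastocysts. All 4 values of the 8-cell stage lay below every other value of the gene, and the morula and blastocyst values lay between these and the early ones. From the 4-cell to the 8-cell stage MAP2K1 went from 12.33 ± 0.19 (SD, n = 2) to 7.39 ± 0.28 (SD, n = 4), 30.9-fold lower (limma adjusted p = 3.01e-11). Into the morula it rose by 1.27 (SE 0.26, limma adjusted p = 0.000316), and blastocysts stayed 13.6-fold below in vivo oocytes (limma adjusted p = 4.46e-10). The 4 values of MAP2K1 at the 8-cell stage did not split into pairs as those of MOS did.

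MAP2K2, for the second MEK isoform, took another course. MAP2K2 read 6.17, 5.60 and 4.93 in cultured oocytes, 8.39, 4.19 and 6.76 in in vivo oocytes, 6.22, 6.80 and 7.03 in zygotes, 7.13 and 7.72 in 2-cell and 7.17 and 7.16 in 4-cell embryos. It then read 7.72, 8.47, 8.49 and 8.12 at the 8-cell stage, 8.51, 8.54 and 8.84 in morulae and 8.44, 8.51 and 8.67 in blastocysts. The later embryos were even, and the oocyte arrays were not: in vivo replicate 2 was the lowest of all 23 values and replicate 1 was near the blastocyst values. No step of MAP2K2 passed. Blastocysts were higher than in vivo oocytes by 2.09 (SE 0.65, limma adjusted p = 0.00813), and without in vivo oocyte replicate 2 the difference was 0.96 (adjusted p = 0.0683). That adjusted p ran from 6.66e-05 to 0.127 over 14 alternative settings.

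MAPK3, for ERK1, was low and even until the blastocyst. MAPK3 read 5.11, 5.09 and 5.11 in cultured oocytes, 5.11, 5.09 and 5.11 in in vivo oocytes, 5.11, 4.98 and 5.08 in zygotes, 5.05 and 5.05 in 2-cell and 5.46 and 5.12 in 4-cell embryos. It then read 5.03, 5.17, 5.17 and 4.52 at the 8-cell stage, 5.36, 5.11 and 5.19 in morulae and 6.50, 6.36 and 6.47 in blastocysts. The 3 blastocysts stood above all 20 other arrays. MAPK3 was 2.34-fold higher in blastocysts than in morulae (difference 1.23 (SE 0.24, limma adjusted p = 0.0023)) and 2.54-fold higher than in in vivo oocytes (limma adjusted p = 5.56e-05). Centring on the spike-in probe sets ended both calls, with adjusted p from 0.00077 to 0.144 over 14 alternative settings for the step and from 1.56e-05 to 0.0554 over 14 alternative settings for the whole course. MAPK6, for the atypical kinase ERK3, read between 11.53 and 13.44 on all arrays. It fell by 0.73 (SE 0.20, limma adjusted p = 0.00468) into the morula and fell by 1.18 (SE 0.22, limma adjusted p = 8.23e-05) over the whole course. Without morula replicate 1 the first of these was -0.51 (adjusted p = 0.0518), and its p ran from 0.000711 to 0.0579 over 15 alternative settings. The other probe sets of MAPK6 fell further from the 8-cell stage to the morula, in means from 10.17 to 8.01 and from 7.73 to 4.55.

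Genes for RSK kinases, the targets of ERK, moved in opposite directions at the morula. RPS6KA3 (RSK2) read 8.61, 8.41 and 8.67 in cultured oocytes, 8.60, 8.16 and 8.64 in in vivo oocytes, 9.04, 9.56 and 9.59 in zygotes, 9.32 and 9.78 in 2-cell and 8.56 and 9.32 in 4-cell embryos. It then read 10.34, 10.04, 9.62 and 10.34 at the 8-cell stage, 6.32, 6.56 and 5.80 in morulae and 4.40, 6.09 and 6.56 in blastocysts. Its mean was highest at the 8-cell stage, and every morula and blastocyst value lay below every earlier one. RPS6KA3 was 14.5-fold lower in morulae than at the 8-cell stage (difference -3.86 (SE 0.40, limma adjusted p = 1.06e-07)). Its rise into the 8-cell stage was 1.15 (SE 0.45, limma adjusted p = 0.0339), and leaving out 4-cell replicate 1, 8-cell replicate 1 or 8-cell replicate 4 ended that call (0.76, 1.06 and 1.06, with adjusted p = 0.292, 0.0668 and 0.0668), where p ran from 0.0164 to 0.292 over 14 alternative settings.

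RPS6KA1 (RSK1) rose where RPS6KA3 fell. RPS6KA1 read 3.45, 4.000 and 2.85 in cultured oocytes, 4.49, 4.12 and 3.96 in in vivo oocytes, 4.29, 4.38 and 3.29 in zygotes, 5.20 and 4.31 in 2-cell and 3.998 and 4.29 in 4-cell embryos. It then read 4.95, 3.71, 3.38 and 5.22 at the 8-cell stage, 8.39, 10.03 and 8.41 in morulae and 9.22, 9.08 and 9.18 in blastocysts. Up to the 8-cell stage all values lay near background, between 2.85 and 5.22, and the 6 morula and blastocyst values lay between 8.39 and 10.03. The gene was at least 21.1-fold higher in morulae than at the 8-cell stage (difference 4.62 (SE 0.48, limma adjusted p = 9.74e-08)) and at least 31.1-fold higher in blastocysts than in in vivo oocytes (limma adjusted p = 5.01e-08). RPS6KA5, for the related nuclear kinase MSK1, read 9.99, 9.86 and 10.02 in cultured oocytes, 8.02, 9.81 and 9.01 in in vivo oocytes, 9.54, 9.28 and 9.69 in zygotes, 9.78 and 9.28 in 2-cell and 9.60 and 9.42 in 4-cell embryos. It then read 10.47, 6.90, 7.48 and 10.43 at the 8-cell stage, 6.20, 7.28 and 6.64 in morulae and 6.03, 5.01 and 6.64 in blastocysts. Its 8-cell values fell into a high and a low pair, and the low pair overlapped the morulae. RPS6KA5 fell by 2.11 (SE 0.69, limma adjusted p = 0.014) into the morula, a call that ended without 8-cell replicate 1, 8-cell replicate 4 or morula replicate 1 (-1.56, -1.58 and -1.86, with adjusted p = 0.0556, 0.0555 and 0.0621, and p from 0.00113 to 0.115 over 15 alternative settings). Over the whole course it fell by 3.06 (SE 0.74, limma adjusted p = 0.00123).

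**Figure D3:**
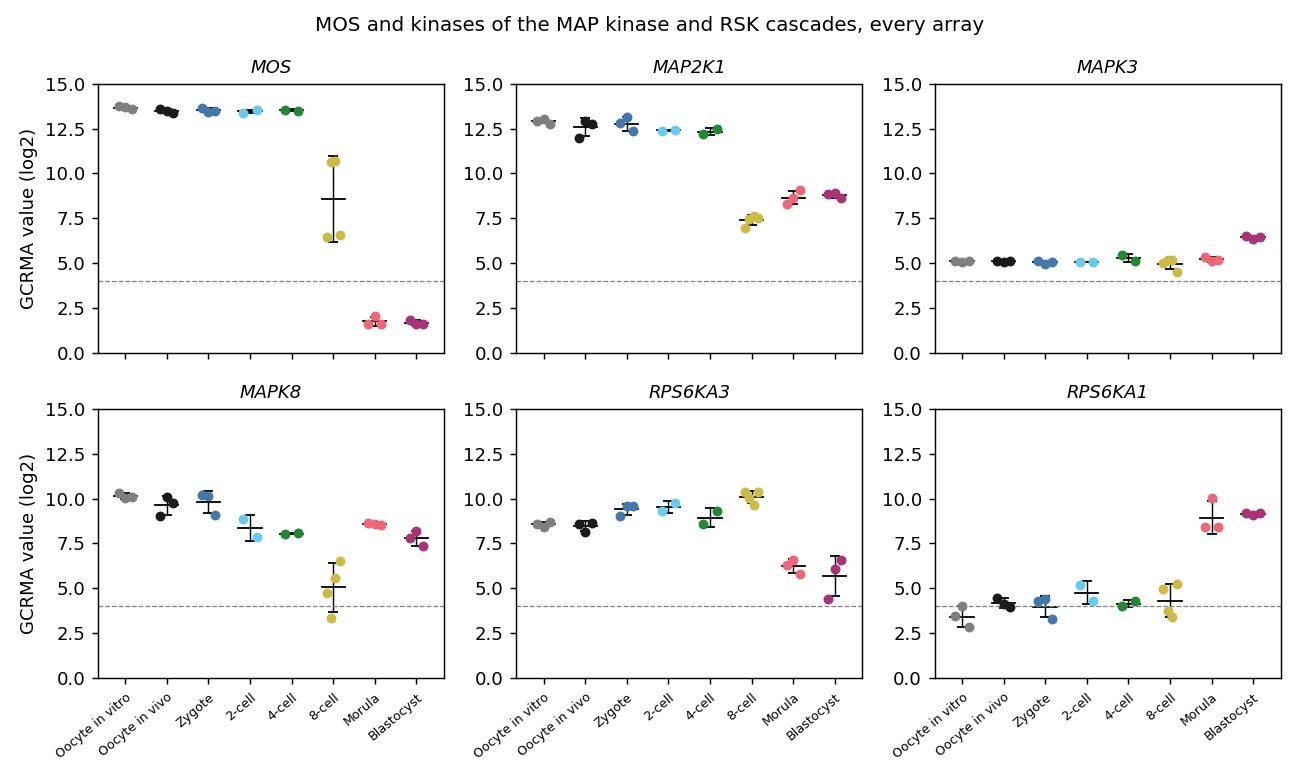
Values (log2 GCRMA) on every array for MOS, MAP2K1, MAPK3, MAPK8, RPS6KA3 and RPS6KA1, by group in order of stage. Points are arrays, horizontal lines are group means, bars are 1 SD, and the dashed line marks 4. MAP2K1 drops at the 8-cell stage, RPS6KA3 drops and RPS6KA1 rises at the morula, and MAPK3 rises in blastocysts.

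In the JNK branch MAPK8 fell at the 8-cell stage and rose at the morula. MAPK8 encodes JNK1, a kinase activated by stress and cytokines. MAPK8 read 10.30, 10.003 and 10.07 in cultured oocytes, 9.03, 10.07 and 9.76 in in vivo oocytes, 10.21, 10.14 and 9.08 in zygotes, 8.89 and 7.86 in 2-cell and 8.03 and 8.07 in 4-cell embryos. It then read 4.77, 3.33, 5.56 and 6.53 at the 8-cell stage, 8.64, 8.61 and 8.51 in morulae and 7.81, 8.18 and 7.36 in blastocysts. The 4 values of the 8-cell stage were the lowest of the 23, and the morulae lay above the 4-cell embryos. MAPK8 was at least 7.13-fold lower at the 8-cell than at the 4-cell stage (means 5.05 ± 1.35 (SD, n = 4) and 8.05 ± 0.03 (SD, n = 2), SE of the difference 0.60, limma adjusted p = 0.000196) and at least 10.4-fold higher in morulae than at the 8-cell stage (difference 3.54 (SE 0.53, limma adjusted p = 1.04e-05)). Over the whole course it fell by 1.83 (SE 0.56, limma adjusted p = 0.00735), and this call ended without the 4 arrays that carry markers of other cells (in vivo oocyte 2, 2-cell 1, 4-cell 1 and blastocyst 1), where the difference was -1.62 (adjusted p = 0.0713, with p from 0.00222 to 0.0713 over 14 alternative settings).

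MAP2K4, which activates JNK and p38, was high in all embryos. MAP2K4 read 8.81, 8.78 and 8.64 in cultured oocytes, 10.70, 9.48 and 10.56 in in vivo oocytes, 10.52, 10.55 and 10.85 in zygotes, 11.12 and 11.04 in 2-cell and 11.06 and 11.35 in 4-cell embryos. It then read 10.88, 10.15, 10.19 and 10.88 at the 8-cell stage, 11.25, 11.29 and 11.11 in morulae and 10.98, 10.86 and 10.71 in blastocysts. The 3 cultured oocyte values lay below all 20 others, with in vivo replicate 2 the next lowest. Cultured oocytes were lower by -1.51 (SE 0.29, limma adjusted p = 0.00212), and the call held with each array of the 2 groups left out (differences from -1.89 to -1.28). Its rise into the morula, 0.69 (SE 0.27, limma adjusted p = 0.0355), ended without 8-cell replicate 2 or 3 or any 1 of the 3 morulae, where the difference ran from 0.56 to 0.74 and adjusted p from 0.055 to 0.0963, and p ran from 0.0141 to 0.181 over 15 alternative settings in all.

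MAPK10, for the JNK isoform of nervous tissue, exceeded 4 on 6 arrays, all of stages before the 8-cell embryo. In vivo oocytes read 6.66, 2.07 and 6.27, zygotes 3.88, 4.96 and 3.12, 2-cell embryos 6.09 and 5.09 and 4-cell embryos 6.58 and 3.53. Replicates of the same group lay on both sides of 4 in oocytes, zygotes and 4-cell embryos. Its fall at the 8-cell stage, -2.41 (SE 0.92, limma adjusted p = 0.0279), was -0.88 without 4-cell replicate 1 (adjusted p = 0.531), the array with leukocyte markers, and -3.93 without 4-cell replicate 2 (adjusted p = 0.00467), while p ran from 0.00467 to 0.531 over 14 alternative settings. The upstream stress kinase MAP3K12 (DLK) fell by 2.52 (SE 0.62, limma adjusted p = 0.00151) at the 8-cell stage and fell by 1.58 (SE 0.55, limma adjusted p = 0.0196) at the morula, a call that ended when its probe sets were averaged (-0.78, adjusted p = 0.0525, with p from 0.000455 to 0.0525 over 15 alternative settings). MAP3K14, the NF-kappaB-inducing kinase, passed only for the whole course, where it was at least 6.19-fold lower in blastocysts than in in vivo oocytes (difference -2.69 (SE 0.73, limma adjusted p = 0.00324)). MAP4K2 (germinal centre kinase), which acts upstream of JNK, fell by 2.89 (SE 0.65, limma adjusted p = 0.000669) over the same course.

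The JNK scaffolds MAPK8IP1 and MAPK8IP2 had their highest means in blastocysts, and MAPK8IP2 exceeded 4 on all arrays. MAPK8IP1 read between 2.81 and 2.87 on all arrays up to the morula and 3.37, 4.56 and 5.30 in blastocysts, a difference of 1.56 (SE 0.32, limma adjusted p = 0.00349) in which 2 of 3 blastocysts exceeded 4. These 2 blastocysts alone brought MAPK8IP1 into the test, which limits its p-value. MAPK8IP2 read 6.83, 6.85, 6.84 and 6.92 at the 8-cell stage, 10.10, 9.46 and 7.12 in morulae and 9.69, 9.71 and 9.23 in blastocysts. Morula replicate 3 stayed at the 8-cell level and the other morulae were at or near the blastocyst level. MAPK8IP2 rose by 2.03 (SE 0.45, limma adjusted p = 0.000659) into the morula and was 4.80-fold higher in blastocysts than in in vivo oocytes (limma adjusted p = 0.000334).

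In the p38 branch a late isoform rose. MAPK13 (p38 delta) read between 2.91 and 4.51 in oocytes and embryos before the 8-cell stage, 4.14, 3.95, 3.50 and 4.40 at the 8-cell stage, 7.86, 7.19 and 6.45 in morulae and 7.66, 8.43 and 8.74 in blastocysts. The 6 late values lay above all 17 earlier ones. MAPK13 was at least 8.18-fold higher in morulae than at the 8-cell stage (difference 3.17 (SE 0.36, limma adjusted p = 2.97e-07)) and at least 17.2-fold higher in blastocysts than in in vivo oocytes (limma adjusted p = 3.59e-09).

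MAPK14, for p38 alpha, read 7.72, 8.16 and 8.12 in cultured oocytes, 11.83, 7.05 and 11.09 in in vivo oocytes, 9.43, 9.90 and 10.70 in zygotes, 11.43 and 11.43 in 2-cell and 11.55 and 11.17 in 4-cell embryos. It then read 11.22, 11.66, 11.56 and 11.08 at the 8-cell stage, 10.71, 10.88 and 10.60 in morulae and 10.73, 10.75 and 11.31 in blastocysts. From the 2-cell stage on every value lay between 10.60 and 11.66, and the cultured oocytes and in vivo replicate 2 were lower than all other arrays. MAPK14 passed in no comparison on this probe set. A second tested probe set of the gene gave another course: its means were 9.53 in 4-cell embryos, 5.79 at the 8-cell stage and 8.60 in morulae, a fall (limma adjusted p = 7.64e-06) and a rise (limma adjusted p = 6.57e-05), and from in vivo oocytes to blastocysts it fell by 1.88, from 10.38 to 8.50 (limma adjusted p = 0.00373).

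Among activators and targets of p38, MAP2K3 and MAPKAPK3 fell at the 8-cell stage. MAP2K3, an activator of p38, fell by 3.23 (SE 0.57, limma adjusted p = 5.99e-05) there and rose by 1.78 (SE 0.51, limma adjusted p = 0.00535) into the morula. MAP2K6, the other dedicated activator, exceeded 4 on in vivo oocyte replicates 1 and 3, on the 3 morulae and on 1 blastocyst, and rose by 2.52 (SE 0.61, limma adjusted p = 0.0015) into the morula. MAP3K6 (ASK2), a stress-activated MAP3K, exceeded 4 on 2 of 23 arrays, both morulae, which read 5.32, 5.14 and 3.32. Only these 2 values above 4 brought MAP3K6 into the test, both from the group where it is high, which limits its p-values. It rose by 2.13 (SE 0.34, limma adjusted p = 2.21e-05) at the morula and fell by 1.57 (SE 0.36, limma adjusted p = 0.00805) into the blastocyst, and without morula replicate 2 the second was -1.30 (adjusted p = 0.0598, with p from 1.03e-05 to 0.182 over 13 alternative settings).

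MAPKAPK3 is a kinase activated by p38. MAPKAPK3 read 9.68, 9.83 and 9.72 in cultured oocytes, 8.85, 9.91 and 9.63 in in vivo oocytes, 10.21, 10.10 and 8.81 in zygotes, 9.02 and 8.16 in 2-cell and 9.06 and 8.44 in 4-cell embryos. It then read 5.19, 2.99, 3.35 and 5.30 at the 8-cell stage, 5.54, 5.80 and 4.41 in morulae and 6.53, 6.24 and 5.99 in blastocysts. All 10 values from the 8-cell stage on lay below all 13 earlier ones. MAPKAPK3 was at least 17.5-fold lower at the 8-cell than at the 4-cell stage (difference -4.55 (SE 0.60, limma adjusted p = 1.91e-06)) and 9.26-fold lower in blastocysts than in in vivo oocytes (limma adjusted p = 5.39e-05).

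MAPKAPK5 (PRAK), a kinase downstream of p38 and ERK3, was the only member called between zygote and 2-cell stage. MAPKAPK5 read 11.38, 11.52 and 11.40 in cultured oocytes, 10.27, 11.35 and 10.82 in in vivo oocytes, 11.04, 10.96 and 10.55 in zygotes, 8.43 and 8.39 in 2-cell and 6.98 and 8.41 in 4-cell embryos. It then read 9.32, 8.08, 8.28 and 9.31 at the 8-cell stage, 8.77, 9.004 and 9.13 in morulae and 9.69, 9.54 and 9.60 in blastocysts. Both 2-cell values lay below all 9 oocyte and zygote values. MAPKAPK5 fell by 2.44 (SE 0.42, limma adjusted p = 0.00321) at the 2-cell stage, 5.42-fold lower, and this held with each array of both groups left out (adjusted p to 0.0349) but not when its probe sets were averaged (-1.29, adjusted p = 0.125). The step to the 8-cell stage, 1.05 (SE 0.40, limma adjusted p = 0.029), ended without 4-cell replicate 1, 8-cell replicate 1 or 8-cell replicate 4 (0.33, 0.86 and 0.86, with adjusted p = 0.59, 0.0785 and 0.0779), was 1.77 without 4-cell replicate 2 (adjusted p = 0.00345), and had p from 0.00345 to 0.59 over 14 alternative settings. A second tested probe set disagreed: it was near background up to the 8-cell stage and rose in morulae from a mean of 2.49 to 5.32 (limma adjusted p = 0.000467), and it was higher in blastocysts than in in vivo oocytes (means 4.87 and 2.52, limma adjusted p = 0.0032), where the first fell by 1.20 (limma adjusted p = 0.009; -0.94 and adjusted p = 0.0528 without in vivo oocyte replicate 2, with p from 0.00288 to 0.215 over 14 alternative settings).

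The S6 kinases act downstream of mTOR on ribosomal protein S6 and translation factors. RPS6KB2 (S6K2) lay below 4 on every array up to the 4-cell stage. RPS6KB2 read 2.31, 2.28 and 2.28 in cultured oocytes, 2.51, 2.53 and 2.52 in in vivo oocytes, 2.48, 2.24 and 2.26 in zygotes, 2.21 and 2.26 in 2-cell and 2.42 and 2.26 in 4-cell embryos. It then read 8.71, 8.67, 8.40 and 8.53 at the 8-cell stage, 7.57, 8.06 and 7.73 in morulae and 6.06, 6.95 and 6.15 in blastocysts. The highest early value was 2.53 and the lowest from the 8-cell stage on was 6.06. The gene was at least 23.8-fold higher at the 8-cell than at the 4-cell stage (difference 6.23 (SE 0.27, limma adjusted p = 4.64e-13)). It fell by 0.79 (SE 0.24, limma adjusted p = 0.00898) into the morula and fell by 1.40 (SE 0.26, limma adjusted p = 0.00137) into the blastocyst, and both of these calls ended with spike-in centring, with p from 0.00513 to 0.129 over 15 alternative settings for the first and from 0.000189 to 0.112 over 14 alternative settings for the second.

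RPS6KB1 (S6K1), the better-known isoform, passed in no comparison and read between 6.81 and 9.43 on all arrays. Its second tested probe set differed, with a rise at the 8-cell stage from a mean of 7.78 to 9.31 (limma adjusted p = 0.00395) and a fall into the morula to 5.15 (limma adjusted p = 1.6e-08). RPS6KC1, a relative of the S6 kinases with a lipid-binding domain, fell by 2.48 (SE 0.57, limma adjusted p = 0.00082) at the 8-cell stage and fell by 2.26 (SE 0.54, limma adjusted p = 0.00106) over the whole course. MAPKAP1 (SIN1), a subunit of mTOR complex 2, read 11.13 and 11.05 in 4-cell embryos, 7.14, 7.22, 7.39 and 7.59 at the 8-cell stage, 8.56, 8.16 and 8.28 in morulae and 8.25, 7.69 and 7.76 in blastocysts. The 8-cell values were the lowest of these groups. It was 13.5-fold lower at the 8-cell than at the 4-cell stage (difference -3.75 (SE 0.26, limma adjusted p = 2.07e-10)) and rose by 0.997 (SE 0.23, limma adjusted p = 0.000866) into the morula.

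Catalytic and regulatory subunits of protein kinase A took different courses. PRKACB encodes the catalytic beta subunit. PRKACB read 11.64, 11.50 and 11.31 in cultured oocytes, 10.05, 11.26 and 11.06 in in vivo oocytes, 11.004, 10.44 and 11.09 in zygotes, 11.06 and 11.03 in 2-cell and 10.43 and 11.08 in 4-cell embryos. It then read 9.48, 7.23, 8.004 and 9.34 at the 8-cell stage, 2.53, 4.35 and 2.53 in morulae and 5.56, 3.37 and 4.12 in blastocysts. The 8-cell values lay below all earlier ones, and the 6 morula and blastocyst values lay below those of the 8-cell stage. PRKACB was at least 21.1-fold lower in morulae than at the 8-cell stage (difference -5.38 (SE 0.57, limma adjusted p = 1.45e-07)) and at least 74.9-fold lower in blastocysts than in in vivo oocytes (difference -6.44 (SE 0.61, limma adjusted p = 1.72e-08)). The preceding fall at the 8-cell stage was -2.24 (SE 0.65, limma adjusted p = 0.00521), and without 4-cell replicate 2 it was -1.91 (adjusted p = 0.0664, with p from 8.12e-07 to 0.0664 over 14 alternative settings). A second tested probe set of PRKACB took the same directions at both steps. Before them it differed, with means of 6.65 in in vivo oocytes, 8.44 in zygotes and 9.73 in 4-cell embryos. Its mean in blastocysts was 2.12. PRKACA, for the catalytic alpha subunit, read near background on every array: 4.40, 4.10 and 4.12 in cultured oocytes, 3.89, 4.69 and 3.94 in in vivo oocytes, 3.88, 4.31 and 3.28 in zygotes, 3.17 and 3.20 in 2-cell and 3.15 and 3.21 in 4-cell embryos. It then read 3.10, 3.20, 3.13 and 2.61 at the 8-cell stage, 3.17, 2.84 and 3.18 in morulae and 3.39, 3.14 and 3.07 in blastocysts. Its highest value was on in vivo oocyte replicate 2, and from the 2-cell stage on all 14 values were below 4. PRKACA fell by 0.97 (SE 0.29, limma adjusted p = 0.00624) over the whole course.

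The regulatory subunit genes PRKAR1A and PRKAR2A fell at the 8-cell stage and rose at the morula. PRKAR1A read 13.55, 13.61 and 13.65 in cultured oocytes, 13.44, 13.81 and 13.77 in in vivo oocytes, 13.90, 13.69 and 13.27 in zygotes, 13.05 and 12.94 in 2-cell and 13.15 and 12.99 in 4-cell embryos. It then read 11.62, 11.59, 11.67 and 11.42 at the 8-cell stage, 13.49, 12.86 and 13.35 in morulae and 12.95, 13.03 and 12.81 in blastocysts. The 4 values of the 8-cell stage lay below all 19 others, which ran from 12.81 to 13.90. PRKAR1A went from 13.07 ± 0.11 (SD, n = 2) to 11.57 ± 0.11 (SD, n = 4) at the 8-cell stage (difference -1.50 (SE 0.18, limma adjusted p = 7.18e-07)) and to 13.23 ± 0.33 (SD, n = 3) in morulae (difference 1.66 (SE 0.16, limma adjusted p = 4.91e-08)). Over the whole course it fell by 0.75 (SE 0.17, limma adjusted p = 0.000824).

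PRKAR2A, the type II alpha regulatory subunit, read 11.93, 12.001 and 12.01 in cultured oocytes, 11.28, 12.20 and 11.72 in in vivo oocytes, 12.12, 11.62 and 12.13 in zygotes, 12.05 and 12.21 in 2-cell and 12.25 and 12.29 in 4-cell embryos. It then read 11.25, 10.74, 11.41 and 11.59 at the 8-cell stage, 12.19, 12.62 and 12.73 in morulae and 11.89, 12.03 and 12.16 in blastocysts. Its 8-cell values were low too, and 1 in vivo oocyte value lay among them. PRKAR2A fell by 1.02 (SE 0.26, limma adjusted p = 0.00171) at the 8-cell stage and rose by 1.27 (SE 0.23, limma adjusted p = 8.33e-05) into the morula, and for the whole course the difference was 0.30 (SE 0.24, limma adjusted p = 0.301), which did not pass. PRKG1, for the kinase activated by cyclic GMP, had its highest means at the 2-cell and 4-cell stages, with 6.65 and 7.47 and 7.13 and 7.17, and read 3.03, 3.58, 4.77 and 2.25 at the 8-cell stage. It was at least 7.79-fold lower at the 8-cell than at the 4-cell stage (difference -3.75 (SE 0.67, limma adjusted p = 6.84e-05)), and the 6 later arrays read at most 2.47.

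AMPK, the energy sensor, is a complex of a catalytic alpha, a beta and a gamma subunit, and at the 8-cell stage its alpha subunit genes fell while PRKAB1 rose. PRKAA2, for catalytic alpha 2, read 8.02, 8.15 and 7.72 in cultured oocytes, 6.62, 8.07 and 7.80 in in vivo oocytes, 7.70, 8.36 and 7.43 in zygotes, 7.06 and 7.73 in 2-cell and 7.14 and 7.33 in 4-cell embryos. It then read 2.51, 2.92, 2.68 and 2.57 at the 8-cell stage, 2.14, 2.13 and 2.65 in morulae and 2.38, 2.40 and 2.12 in blastocysts. The 13 values up to the 4-cell stage were at least 6.62 and the 10 later ones at most 2.92. PRKAA2 was at least 9.40-fold lower at the 8-cell than at the 4-cell stage (difference -4.56 (SE 0.37, limma adjusted p = 2.77e-09)). PRKAA1, for catalytic alpha 1, read 6.70, 6.98 and 7.15 in cultured oocytes, 5.81, 7.42 and 5.65 in in vivo oocytes, 6.39, 7.27 and 6.75 in zygotes, 6.40 and 7.22 in 2-cell and 6.84 and 6.96 in 4-cell embryos. It then read 6.48, 2.25, 2.60 and 4.92 at the 8-cell stage, 5.04, 3.06 and 3.32 in morulae and 3.004, 3.12 and 3.17 in blastocysts. The 8-cell arrays were spread widely, with 1 value at the level of the earlier stages and 2 below background. PRKAA1 was at least 4.13-fold lower at the 8-cell than at the 4-cell stage (difference -2.84 (SE 0.85, limma adjusted p = 0.0065)) and at least 4.90-fold lower in blastocysts than in in vivo oocytes (limma adjusted p = 0.00158).

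PRKAB1, for the beta 1 subunit, read 5.25, 5.29 and 5.30 in cultured oocytes, 5.96, 5.22 and 5.65 in in vivo oocytes, 5.67, 5.65 and 5.17 in zygotes, 5.80 and 5.996 in 2-cell and 5.56 and 5.87 in 4-cell embryos. It then read 9.49, 8.89, 9.64 and 9.53 at the 8-cell stage, 7.41, 6.93 and 7.14 in morulae and 8.33, 8.72 and 8.21 in blastocysts. All 10 later values lay above all 13 earlier ones, with the highest at the 8-cell stage. PRKAB1 was 12.7-fold higher at the 8-cell than at the 4-cell stage (difference 3.67 (SE 0.31, limma adjusted p = 4.38e-09)), fell by 2.23 (SE 0.27, limma adjusted p = 9.67e-07) into the morula and rose by 1.26 (SE 0.29, limma adjusted p = 0.00865) into the blastocyst. The last call ended without morula replicate 2 (1.15, adjusted p = 0.0512, with p from 0.00517 to 0.148 over 14 alternative settings). PRKAG1, for the gamma 1 subunit, read 6.31, 6.38 and 5.72 in cultured oocytes, 9.76, 6.56 and 8.63 in in vivo oocytes, 7.74, 7.82 and 7.99 in zygotes, 8.89 and 9.22 in 2-cell and 9.38 and 8.74 in 4-cell embryos. It then read 9.36, 8.89, 9.11 and 9.004 at the 8-cell stage, 7.38, 8.14 and 8.07 in morulae and 7.51, 7.43 and 7.54 in blastocysts. Cultured oocytes were the lowest group, and in vivo replicate 2 was close to them while replicate 1 was the highest of all arrays. Cultured oocytes were lower by -2.18 (SE 0.51, limma adjusted p = 0.0103), and the call ended without cultured replicate 3, in vivo replicate 1 or in vivo replicate 3 (-1.97, -1.46 and -2.03, with adjusted p = 0.0539, 0.0919 and 0.0505, and p from 5.22e-06 to 0.189 over 14 alternative settings). Its fall into the morula, -1.22 (SE 0.48, limma adjusted p = 0.0371), ended without any 1 of 8-cell replicates 1, 3 and 4 or morula replicates 1 and 3 (adjusted p from 0.0525 to 0.15).

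**Figure D4:**
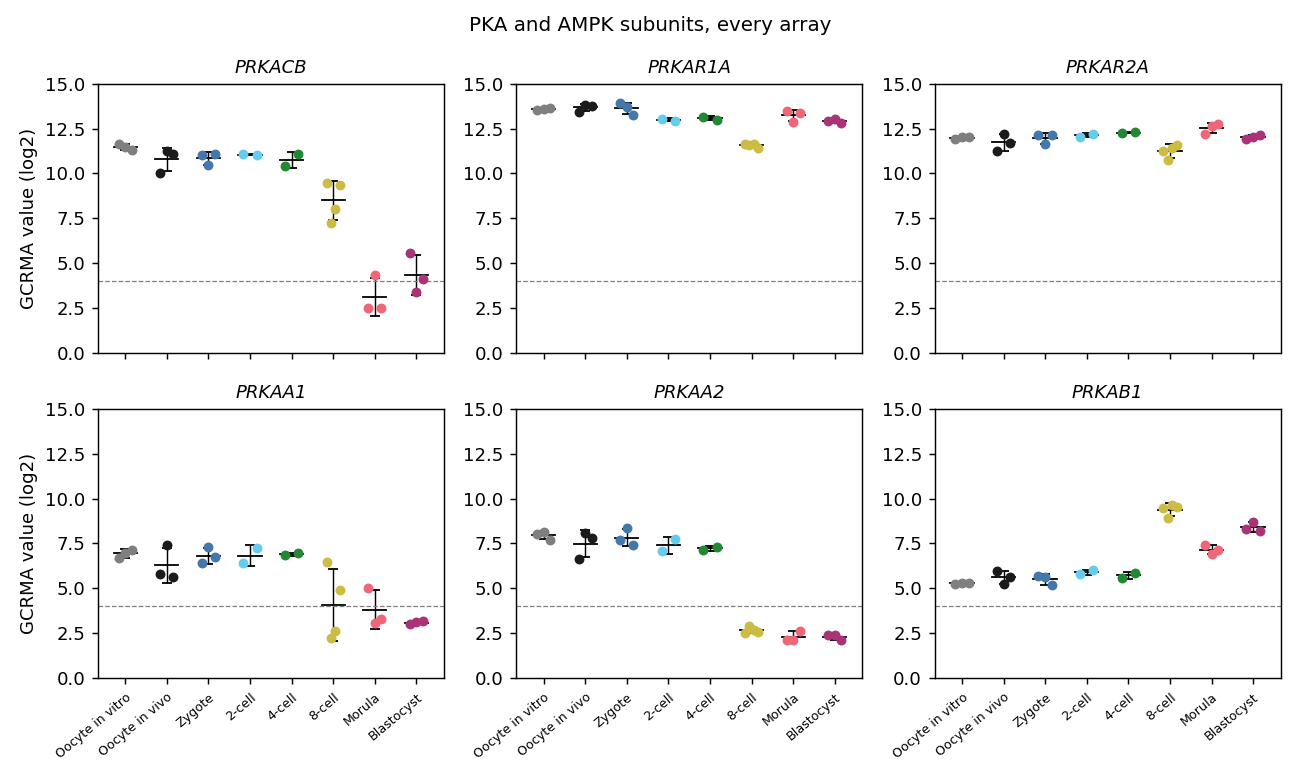
Values (log2 GCRMA) on every array for the PKA subunits PRKACB, PRKAR1A and PRKAR2A and the AMPK subunits PRKAA1, PRKAA2 and PRKAB1, by group in order of stage. Points are arrays, horizontal lines are group means, bars are 1 SD, and the dashed line marks 4. PRKACB falls in 2 steps while PRKAR1A and PRKAR2A dip at the 8-cell stage and return, and at the 8-cell stage both PRKAA genes fall as PRKAB1 rises.

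Protein kinase C genes were high at different stages. PRKCH (PKC eta), a diacylglycerol-dependent isoform, was above 4 from zygote to 4-cell embryo. PRKCH read 3.58, 2.89 and 2.90 in cultured oocytes, 3.26, 3.84 and 2.83 in in vivo oocytes, 6.08, 6.76 and 6.58 in zygotes, 7.66 and 7.41 in 2-cell and 7.88 and 7.997 in 4-cell embryos. It then read 2.70, 2.84, 2.75 and 2.61 at the 8-cell stage, 2.82, 2.80 and 2.81 in morulae and 2.63, 2.75 and 2.76 in blastocysts. The 7 values of zygotes, 2-cell and 4-cell embryos lay between 6.08 and 8.00, and the 16 others all lay below 4. PRKCH was at least 5.56-fold higher in zygotes than in in vivo oocytes (difference 3.17 (SE 0.28, limma adjusted p = 3.49e-06)) and at least 15.3-fold lower at the 8-cell than at the 4-cell stage (difference -5.21 (SE 0.30, limma adjusted p = 2.02e-11)). The rise in zygotes was 3.43 without in vivo oocyte replicate 2 (limma adjusted p = 3.44e-06), and its p ran from 1.55e-06 to 0.122 over 14 alternative settings.

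PRKCD (PKC delta), another diacylglycerol-dependent isoform, went up at the step where PRKCH went down. PRKCD read 2.80, 2.81 and 2.87 in cultured oocytes, 3.69, 2.81 and 2.87 in in vivo oocytes, 2.79, 2.81 and 2.77 in zygotes, 3.05 and 2.83 in 2-cell and 3.59 and 2.81 in 4-cell embryos. It then read 8.91, 6.93, 6.67 and 8.38 at the 8-cell stage, 7.50, 7.98 and 7.53 in morulae and 7.86, 7.96 and 7.77 in blastocysts. All 13 early values were below 4, and the lowest of the 10 later ones was 6.67. PRKCD was at least 13.2-fold higher at the 8-cell than at the 4-cell stage (difference 4.52 (SE 0.47, limma adjusted p = 8.38e-08)) and at least 14.6-fold higher in blastocysts than in in vivo oocytes (limma adjusted p = 1.56e-08).

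PRKCQ (PKC theta), best known from T cells, was highest in morulae. PRKCQ read 4.15, 4.28 and 4.54 in cultured oocytes, 4.23, 4.16 and 4.29 in in vivo oocytes, 4.28, 4.26 and 4.14 in zygotes, 4.24 and 4.21 in 2-cell and 4.11 and 4.23 in 4-cell embryos. It then read 4.14, 3.84, 4.28 and 4.08 at the 8-cell stage, 6.85, 7.87 and 7.19 in morulae and 5.32, 5.90 and 6.27 in blastocysts. Up to the 8-cell stage all 17 values lay between 3.84 and 4.54, the 3 morulae were the highest arrays and the blastocysts lay between. The gene was at least 9.04-fold higher in morulae than at the 8-cell stage (difference 3.22 (SE 0.27, limma adjusted p = 5.82e-09)) and then fell by 1.47 (SE 0.29, limma adjusted p = 0.00248) into the blastocyst, a call with p from 0.00112 to 0.136 over 14 alternative settings.

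The atypical isoforms, which work with the PAR polarity proteins, both rose at the morula. PARD6B, for a PAR protein, went the other way. It read 9.73, 11.04, 10.71 and 9.31 at the 8-cell stage and 5.20, 5.24 and 5.06 in morulae. PARD6A, for a related PAR protein, lay below 4 at both stages. PRKCZ (PKC zeta) read 3.33, 3.32 and 4.13 in cultured oocytes, 5.30, 3.29 and 3.30 in in vivo oocytes, 3.31, 3.29 and 4.12 in zygotes, 5.24 and 4.47 in 2-cell and 5.13 and 5.58 in 4-cell embryos. It then read 4.07, 4.52, 4.66 and 2.78 at the 8-cell stage, 10.58, 10.48 and 10.72 in morulae and 11.23, 10.69 and 11.29 in blastocysts. The lowest of the 6 morula and blastocyst values was 10.48 and the highest of the 17 earlier ones was 5.58. PRKCZ was at least 77.6-fold higher in morulae than at the 8-cell stage (difference 6.58 (SE 0.48, limma adjusted p = 8.88e-10)) and at least 99.6-fold higher in blastocysts than in in vivo oocytes (limma adjusted p = 3.87e-10). A small fall at the 8-cell stage, -1.35 (SE 0.55, limma adjusted p = 0.0385), ended without 4-cell replicate 1 or 2 or 8-cell replicate 1 or 4 (adjusted p = 0.0754, 0.205, 0.0524 and 0.12, with differences from -1.57 to -0.94, and p from 0.0216 to 0.205 over 14 alternative settings).

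PRKCI (PKC iota) was measured at every stage. PRKCI read 8.65, 8.46 and 8.62 in cultured oocytes, 6.48, 8.27 and 7.30 in in vivo oocytes, 8.60, 8.89 and 8.66 in zygotes, 8.66 and 8.97 in 2-cell and 9.01 and 9.07 in 4-cell embryos. It then read 4.32, 6.09, 6.98 and 5.33 at the 8-cell stage, 9.98, 10.71 and 11.12 in morulae and 8.95, 9.40 and 9.50 in blastocysts. The 8-cell stage held the lowest values apart from 1 in vivo oocyte array, and the morulae held the highest. PRKCI was 10.2-fold lower at the 8-cell than at the 4-cell stage (difference -3.36 (SE 0.55, limma adjusted p = 2.3e-05)) and 30.3-fold higher in morulae than at the 8-cell stage (difference 4.92 (SE 0.48, limma adjusted p = 5.06e-08)). Trophectoderm markers moved at the same step, with 5 of 6 higher in morulae, where 30% of all genes were higher. Means over that list were 3.33 to 4.74 at the 8-cell stage and 7.99 to 10.08 in morulae. Other lists moved as well. Of the inner cell mass markers 2 of 4 were higher and 0 lower, and of the cumulus and granulosa markers 4 of 11 were higher and 2 lower. The part of any of these cell types in the rise of PRKCZ, PRKCI and PRKCQ was not tested. PRKD3, for a kinase of the PKD family that PKC activates, read between 3.21 and 4.83 and passed in no comparison.

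**Figure D5:**
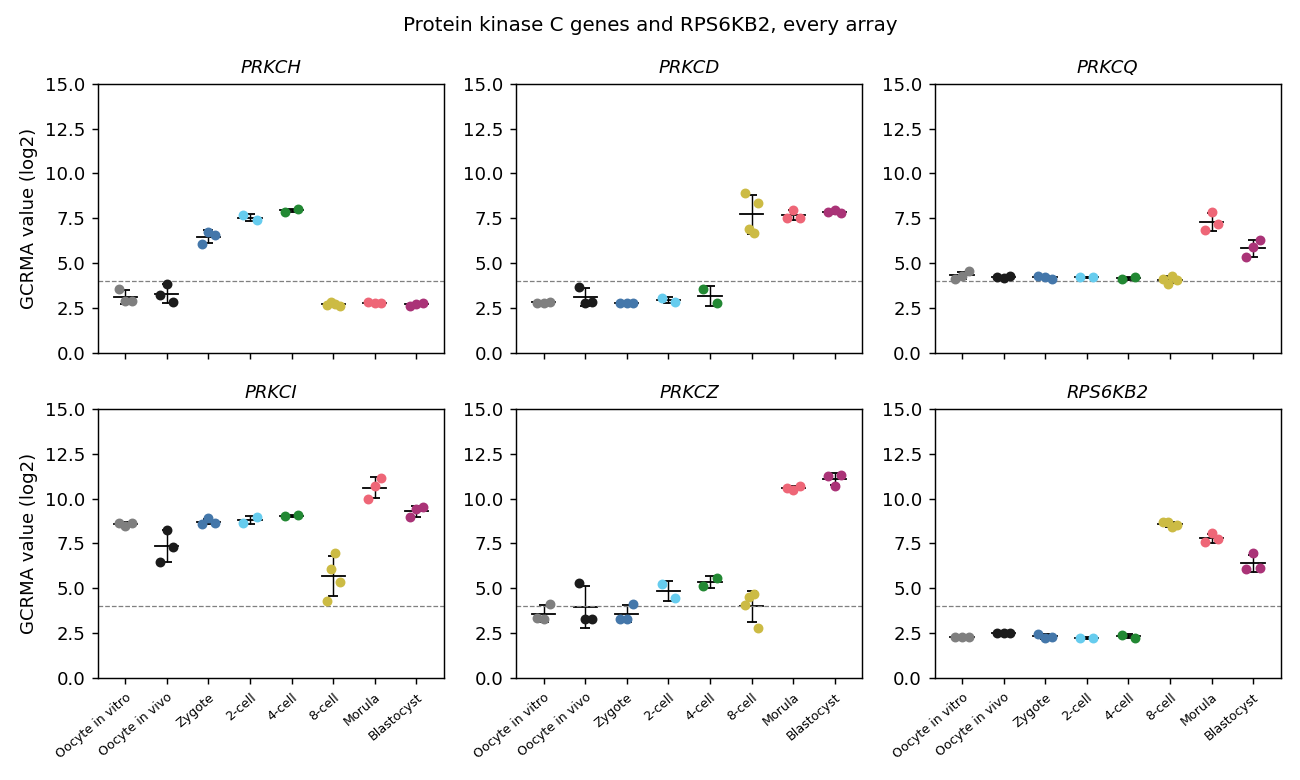
Values (log2 GCRMA) on every array for 5 protein kinase C genes and RPS6KB2, by group in order of stage. Points are arrays, horizontal lines are group means, bars are 1 SD, and the dashed line marks 4. PRKCH is above 4 from zygote to 4-cell embryo, PRKCD and RPS6KB2 from the 8-cell stage on, and PRKCZ and PRKCQ rise at the morula.

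The 8 products that belong to none of these kinases include the largest rise at the 8-cell stage. MAPK1IP1L read 6.71, 5.87 and 5.87 in cultured oocytes, 5.44, 7.23 and 5.28 in in vivo oocytes, 5.29, 5.59 and 5.89 in zygotes, 5.84 and 4.24 in 2-cell and 5.69 and 3.82 in 4-cell embryos. It then read 12.10, 12.67, 12.44 and 12.27 at the 8-cell stage, 12.19, 12.02 and 12.28 in morulae and 10.64, 12.05 and 11.74 in blastocysts. The highest of the 13 early values was 7.23 and the lowest of the 10 later ones was 10.64. The gene was at least 184-fold higher at the 8-cell than at the 4-cell stage (difference 7.61 (SE 0.58, limma adjusted p = 1.03e-09)) and 45.0-fold higher in blastocysts than in in vivo oocytes (limma adjusted p = 3.34e-08), and its second tested probe set rose as well. PRKCSH, the beta subunit of glucosidase II in the endoplasmic reticulum, was below 4 on all 13 early arrays, read 7.72, 5.73, 5.03 and 7.24 at the 8-cell stage, and was at least 5.40-fold higher there than at the 4-cell stage (difference 3.58 (SE 0.50, limma adjusted p = 3.93e-06)). MAP3K7CL went down, at least 4.52-fold lower at the 8-cell than at the 4-cell stage (difference -2.38 (SE 0.50, limma adjusted p = 0.000358)). PRKDC, the catalytic subunit of DNA-dependent protein kinase, read between 5.83 and 9.91 and passed the F test but no single comparison.

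Against blastocysts, in vivo oocytes kept 31 to 35 called members under every alternative. The comparisons with cultured oocytes and with zygotes turn on in vivo oocyte replicate 2. Without it 10 of 45 members passed between cultured and in vivo oocytes, beside 22.7% of all genes, and 8 passed between in vivo oocyte and zygote, beside 10% of all genes. In cultured oocytes MAP3K7CL and PRKCI were then higher and MAP2K2, MAP2K4, MAP2K6, MAP3K12, MAP4K2, MAPK10, MAPK14 and PRKAG1 were lower. The largest difference was that of MAPK10, -4.14 (limma adjusted p = 8.27e-05), beside -2.67 (SE 0.86, limma adjusted p = 0.062) with all arrays. MAPK14 had the smallest p, with a difference of -3.46 (limma adjusted p = 6.99e-07) beside -1.99 (SE 0.73, limma adjusted p = 0.11) with all arrays. Its second tested probe set went the other way over all arrays, with means of 10.95 in cultured and 10.38 in in vivo oocytes, and did not pass (limma adjusted p = 0.645). In zygotes PRKCH, PRKCI and PRKG1 were higher and MAP2K6, MAP4K2, MAPK10, MAPK14 and PRKAG1 lower than in in vivo oocytes. MAP2K6 read 6.07, 2.27 and 4.84 on the 3 in vivo oocyte arrays and 2.47, 2.33 and 2.33 on the cultured ones, and MAP4K2 read 8.99, 5.08 and 7.68 and 6.48, 6.24 and 5.40. For both genes replicate 2 lay below the cultured oocytes, and the part of the cumulus and granulosa markers of that array in these values was not tested. The 2 comparisons share the in vivo oocyte arrays, so they are not independent of each other.

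Genes around these kinases were counted in 6 lists, from the 4-cell to the 8-cell stage first, where 65.5% of all genes passed. Upstream of ERK, 1 of 10 tested genes rose and 5 fell, with RRAS at 5.51, MOS at -4.91 and RRAS2 at -4.54 (limma adjusted p = 1.11e-09, 4.5e-05 and 1.57e-09). Both RRAS genes encode small GTPases related to RAS. Of 11 phosphatases and other brakes on MAP kinases, 2 rose and 6 fell, led by DUSP10 at -5.68, DUSP1 at 5.56 and SPRY1 at -5.04 (limma adjusted p = 2.32e-06, 7.49e-06 and 2.4e-06). DUSP1 and DUSP10 encode phosphatases that inactivate JNK and p38, and they moved in opposite directions. Of 17 MAP kinase targets, 4 rose and 7 fell, led by the transcription factor genes MYC at 7.96, FOSL1 at -3.96 and JUN at -3.76 (limma adjusted p = 1.93e-11, 1.8e-05 and 3.39e-05).

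Around PKA, 4 of 11 genes of cyclic AMP signalling rose and 5 fell, led by the anchoring protein AKAP8 at 3.94, the transcription factor CREM at -3.93 and the stimulatory G protein GNAS at -3.29 (limma adjusted p = 1.57e-07, 1.86e-05 and 4.04e-07). Around PKC, 5 of 15 genes of lipid signalling and PKC binding rose and 5 fell, led by the PKC-binding protein RACK1 at 4.86, the calcium channel ITPR1 at 3.36 and the adaptor YWHAZ at -3.26 (limma adjusted p = 3.99e-06, 1.24e-06 and 2.65e-05). Around S6 kinase and AMPK, 5 of 14 genes rose and 3 fell, led by the mTOR complex subunit RPTOR at 3.78, the S6 kinase substrate RPS6 at 3.02 and the elongation factor kinase EEF2K at -2.99 (limma adjusted p = 4.54e-05, 3.68e-07 and 0.000897). Between the 8-cell stage and the morula 58.4% of all genes passed (30% higher and 28.4% lower). The counts higher and lower there were 5 and 3 of 10 upstream of ERK and 1 and 4 of 11 among the brakes. They were 5 and 6 of 17 among the targets and 2 and 4 of 11 around PKA. Around PKC they were 4 and 4 of 15, and around S6 kinase and AMPK 4 and 2 of 14. The medians of the lists at the 8-cell stage ran from -1.05 upstream of ERK to 0.44 around S6 kinase and AMPK, beside -0.03 over all genes.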

How the data were processed

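The authors deposited log2 expression values made by GCRMA (version 2.0.0, per the submitters' processing notes), 1 per probe set and array, which were used as deposited. Scanner files were not used here. The table holds 24128 probe sets, and 112 controls were left out. Of the other 24016, 13292 carry 1 gene symbol, 86 several and 10638 none. All 57 member symbols are the same in a RefSeq table matched by gene ID, and no positions or sequences are given.

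The test took probe sets above 4 on 2 or more arrays: 14571 probe sets, standing for 7070 genes. Groups are those of the labels. A single limma model (version 3.58.1, R 4.3.3, eBayes with trend) of all 23 arrays gave a mean for each of 8 groups with 15 residual degrees of freedom. Tests are two-sided, adjusted by Benjamini-Hochberg over all tested probe sets, and called at an adjusted p under 0.05. The script was tested on simulated data. The number of arrays limits the precision.

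Members and pathway and marker lists were chosen with earlier results of these data known. Values on every array are given for the 4 largest rises and 4 largest falls called in each comparison and for core kinases. At most 3 genes are named per pathway list, by size of change, and PARD6A and PARD6B are named besides. The alternatives changed the filter, the scaling, the choice of probe set, the spread, the arrays and a replicate block.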

Additional observations from a re-analysis of the deposited data

Results flagged for a closer look

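With 4 arrays in the 8-cell group, the 40 members with a value of at least 4 there were checked for an array far from the other 3. For 2 such an array was found, which is about the number that chance gives at 1 in 20. MAPK12, which encodes p38 gamma, read 4.25 on 8-cell replicate 2 and 3.61 to 3.66 on the other 3 arrays. RPS6KA4, which encodes MSK2, read 5.14 on the same array and 2.76 to 2.99 on the others. Each gene exceeded 4 on that array alone of the 23, so it entered this check only through the flagged value. Neither was tested in the comparisons, and both values have no replicate.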

How the results depend on the processing

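Between the 4-cell and 8-cell stages, between the 8-cell stage and the morula, and between in vivo oocyte and blastocyst, the counts of members stayed within 1.5 times of 25, 23 and 33 under every alternative, at 21 to 26, 19 to 26 and 31 to 35. The count for any change ran from 37 to 44 around 42, and that from the 2-cell to the 4-cell stage was 0 throughout. The smaller counts moved. For cultured against in vivo oocytes the count of 2 became 9 without 4 arrays that carry markers of other cells (in vivo oocyte 2, 2-cell 1, 4-cell 1 and blastocyst 1), 0 with the spread taken from the compared groups only, and 1 to 10 with single arrays left out. For zygote against in vivo oocyte the count of 1 became 7 without those 4 arrays, 0 with the spread of the compared groups only, and 1 to 8 with single arrays left out. For the 2-cell stage against the zygote the count of 1 became 2 with no filter on low values, 0 when the probe sets of a gene were averaged, 0 with the spread of the compared groups only, and 1 to 2 with single arrays left out. For blastocyst against morula the count of 6 became 0 with spike-in centring and 0 with the spread of the compared groups only, and was 4 to 7 with single arrays left out. The cause of these changes was not tested. Leaving arrays out, or using the compared groups only, also leaves fewer arrays behind the spread.

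Of 1290 values of the 91 single-gene calls under the alternatives, 1204 kept their direction and passed, 85 kept their direction and did not pass, and 1 reversed: MAPKAPK5 in blastocysts against in vivo oocytes was 0.57 when its probe sets were averaged (adjusted p = 0.215) and -1.20 otherwise. No alternative ended 62 of the calls. A replicate block, with the number in the labels as a term, gave counts of 2, 1, 1, 0, 23, 24, 6 and 33 in the 8 comparisons. The numbers were not taken to pair arrays: deviations of 21 same-number pairs correlated at -0.377 to 0.491, 5 of them above 0.1, and 3 of 15 arrays correlated best with their own number. Spike-in centring moved the median difference of all genes from 0.01 to -0.42 between the 2-cell and 4-cell stages and from 0.08 to -0.28 between in vivo oocyte and blastocyst, and centring on array medians moved it from -0.03 to 0.15 at the 8-cell stage.

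Groups hold 2 to 4 arrays of pools, and signal below 4 limits what can be said of 12 members and of every fold given as at least.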

Other observations

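Some members differed widely among the 4 arrays of the 8-cell stage. RPS6KA5 read 10.47, 6.90, 7.48 and 10.43 on replicates 1 to 4, and MAP3K14, the NF-kappaB-inducing kinase, read 6.62, 2.90, 3.21 and 6.14. PRKAA1 read 6.48, 2.25, 2.60 and 4.92, and PRKCSH read 7.72, 5.73, 5.03 and 7.24. In each of these replicates 1 and 4 were above replicates 2 and 3. MOS read 6.46, 10.65, 10.70 and 6.59 on the same arrays and went the other way. PRKCI read 4.32, 6.09, 6.98 and 5.33, with replicates 1 and 4 lower, as for MOS. MAP2K1, PRKAR1A, PRKCH and RPS6KB2 had no such split, with 8-cell standard deviations of 0.28, 0.11, 0.10 and 0.14. The stage holds embryos of 8 to 16 cells, and the labels do not give the cell number of each array.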
